A study of Mus musculus with 5 samples.

Results

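The cells described here were Paneth-rule cells of the mouse small intestine, sorted for a reporter of the Neurog3 lineage and then chosen by their own RNA. Levels are given as unique molecular identifiers (UMIs, 1 per captured RNA molecule) per 10000 UMIs of the cell. A barcode counted as a cell, and was kept, if over 1000 genes were seen in it and mitochondrial genes took less than 10% of its UMIs. A kept cell was taken as a Paneth-rule cell with Lyz1 and Defa24 together at 300 or more, at least 2 UMIs of Mmp7, and Chgb under 20. The rule found 378 of 9451 kept cells, or 4.0% (exact Clopper-Pearson 95% interval 3.61 to 4.41). Since these measured values chose the cells, the levels of Lyz1, Defa24, Mmp7 and Chgb are descriptions.

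The library came from 4 pooled mice (2 males and 2 females) aged 6 weeks, of genotype Neurog3-Cre; R26-LSL-tdTomato on the C57Bl/6J strain, with no treatment. Cells with the tdTomato reporter were sorted from epithelium of crypts and villi and captured in droplets by the GemCode system. The Cre recombinase is driven by the gene region of Neurog3, and the reporter stays on in all descendants of a cell that once had the recombinase, so the sort took cells by their past. The mice were pooled, so this is 1 library with no replicates, no value can be given by mouse, and no result carries a test.

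Paneth cells lie at the base of the crypts, next to the stem cells, and release granules of antimicrobial proteins, chiefly alpha-defensins and lysozyme. In the mouse the metalloproteinase Mmp7 cleaves pro-forms of alpha-defensins into the active peptides, and Paneth cells also supply Wnt3, Egf and Notch ligands to the stem cells. Neurog3 is the transcription factor that starts the enteroendocrine fate, and cells that had it for a time can also become Paneth or goblet cells.

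Neurog3 itself had a UMI in 1 of the 378 Paneth-rule cells (0.265%) and in 27 of the 9451 kept cells (0.286%). The matrix holds no gene named after tdTomato, so lineage here rests on the sort and could not be checked cell by cell. The library held 108489965 UMIs over 475960 barcodes. The 378 Paneth-rule cells held 6910369 UMIs, from 2939 to 65130 a cell with a median of 14289, against a median of 5984 in all kept cells. They were compared with 3040 goblet-rule cells, in which Zg16, Fcgbp, Clca1 and Spink4 together (the goblet sum) reached 1000 and Mmp7 had no UMI, with a median of 6236 UMIs. A further set, used where enteroendocrine RNA is at issue, was the 4028 cells with Chgb at 20 or more, with a median of 4052 UMIs. Barcodes of 1 to 100 UMIs gave the free RNA of the suspension. All intervals cover counting error only.

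The rule has no limit on goblet genes, and the chosen cells fell into unlike sets. In 166 of 378 Paneth-rule cells, or 43.9% (38.8 to 49.1), the goblet sum was itself 1000 or more. The other 212 had a median goblet sum of 292, and the 166 had 2512, near the 3006 of goblet-rule cells. This division at 1000 was chosen after seeing the data, and the 2 sets are called goblet-low and goblet-high below. For the 212 goblet-low cells only Itln1 and Ang4 could test the name Paneth, since the rule used the other 3 markers. Itln1 was at 100 or more in 201 of the 212 and between 10 and 100 in 11, while Ang4 was at 100 or more in 120 and under 10 in 9. For the 166 goblet-high cells the data went against it in part, so all are called by the rule.

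**Figure D1:**
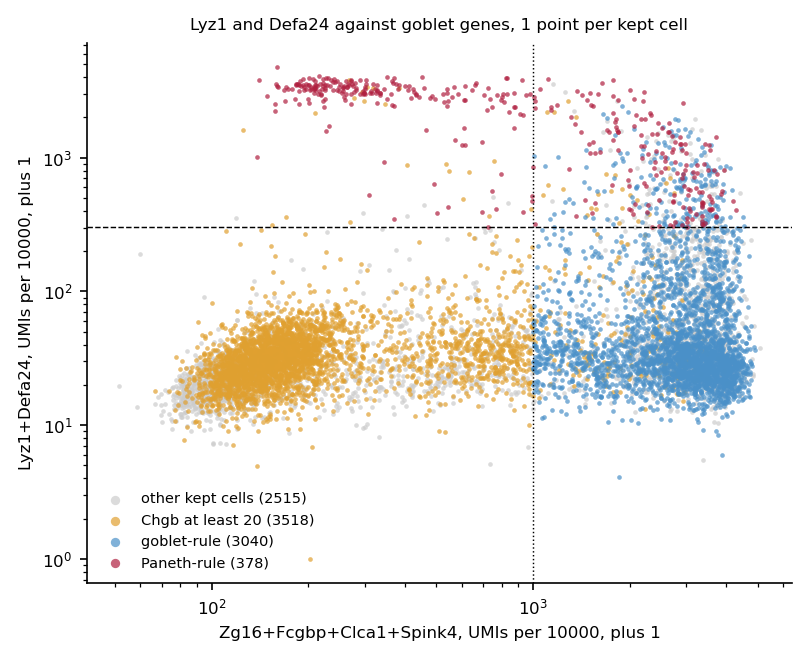
Each point is 1 of 9451 kept cells, by goblet sum (horizontal, log scale) and Lyz1 and Defa24 together (vertical, log scale), both as UMIs per 10000 plus 1, with lines at the thresholds of 1000 and 300. Goblet-rule cells are drawn over cells with Chgb at 20 or more. The 212 goblet-low Paneth-rule cells form a band at the top left, and the 166 goblet-high cells run down into the goblet-rule cells at the right.

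The thresholds lay in unlike places. The 20 cells just above the limit of 300 had Lyz1 and Defa24 together from 303 to 366 and a median goblet sum of 2963. The 20 cells just below it ran from 260 to 299 with a median goblet sum of 3068, so the limit passed through cells rich in goblet RNA. Among cells meeting the other conditions, 179 had no UMI of Mmp7, 90 had 1, 43 had 2 and 26 had 3. Chgb lay between 10 and 20 in 13 Paneth-rule cells, while 9 cells outside the limit had 20 to 40 and 19 had 40 or more.

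Cells at the high end and the low end of Lyz1 and Defa24 together differed in other genes too. Of 217 cells with Lyz1 and Defa24 together at 2000 or more, 29 were goblet-high. Their median Itln1, a lectin that binds microbial sugars, was 381. Of 69 cells between 300 and 600, 58 were goblet-high, and their median Itln1 was 35.4. The trefoil peptide Tff3, a goblet product, ran the other way, with a median of 106 at the high end and 1272 at the low end. Lyz1, the Paneth lysozyme, is part of the sum that made the ends, with a median of 394 at the high end and 5.28 at the low end, so most low cells met the rule through Defa24.

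**Figure D2:**
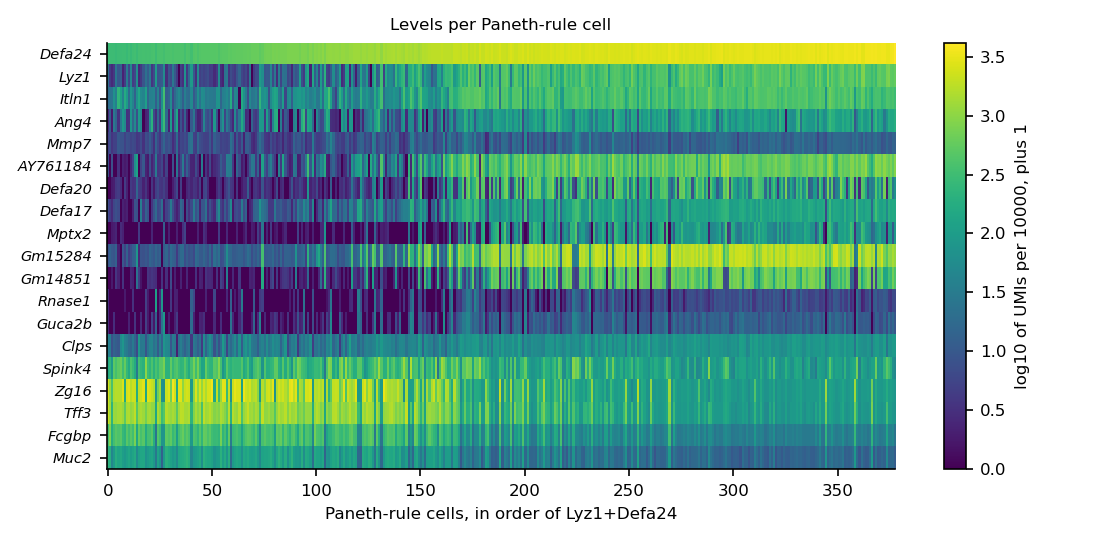
Levels of 19 genes in each of the 378 Paneth-rule cells, ordered from left to right by Lyz1 and Defa24 together; color is log10 of UMIs per 10000 plus 1. Cells at the left are high in Zg16 and Tff3 and low in Lyz1 and Gm15284, and most cells at the right are the reverse.

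The markers can be read by set, pooled over the cells of each. Pooled levels of all 378 cells are weighted toward the deep goblet-low cells, which gave 77.8% of the UMIs. Lyz1 (ENSMUSG00000069515, chr10:117287797-117292868) stood at 348 in Paneth-rule cells, 424 in goblet-low, 82.1 in goblet-high and 4.04 in goblet-rule cells. The goblet-high cells were uneven in Lyz1, with a median of 15.1 and with 70 of 166 under 10 and 35 at 100 or more. Defa24 (ENSMUSG00000064213, chr8:21734494-21735471), an alpha-defensin, stood at 2386, 2700, 1284 and 89.4 in the order Paneth-rule, goblet-low, goblet-high and goblet-rule cells. Both were highest in goblet-low cells, and both helped to choose the cells.

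Mmp7 (ENSMUSG00000018623, chr9:7692090-7699585) was at 13.0 in Paneth-rule cells, and the rule set it to no UMI in goblet-rule cells. Its level was 14.3 in goblet-low and 8.55 in goblet-high cells, against 1.37 in free RNA. Itln1 (ENSMUSG00000038209, chr1:171518122-171535294) stood at 322 in Paneth-rule cells and 11.6 in goblet-rule cells, a log2 fold of 4.80 (4.78 to 4.82). Ang4 (ENSMUSG00000060615, chr14:51763878-51773590), a ribonuclease with microbicidal activity, stood at 107 against 23.7, a log2 fold of 2.18 (2.16 to 2.19). Of the 5 markers Ang4 had the smallest pooled fold. Its median was 74.3 in Paneth-rule and 4.10 in goblet-rule cells, where the 90th percentile was 70.7. Itln1 and Ang4 were not in the rule, although they were named as markers of these cells.

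Shares of cells with a UMI say little here, because the most abundant genes had a UMI in nearly every cell of each set. Defa24 had a UMI in 3040 of 3040 goblet-rule cells. After thinning each cell to 2000 UMIs, Lyz1 was seen in 334 of 378 Paneth-rule cells (88.4%, 84.7 to 91.4) and in 1483 of 3040 goblet-rule cells (48.8%, 47.0 to 50.6). No Paneth-rule or goblet-rule cell was shallower than 2000 UMIs. Free RNA held Lyz1 at 27.7, above its level in goblet-rule cells, so levels are used below in place of shares.

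Alpha-defensins made up most of the RNA counted in these cells. All 22 alpha-defensin genes of the list had a UMI, and together they held 53.5% of UMIs in Paneth-rule cells, against 1.12% in goblet-rule cells. The share was 64.1% in goblet-low and 16.3% in goblet-high cells. After Defa24, Gm15284 (ENSMUSG00000074444, renamed Defa30 in later annotation) stood at 1205 in Paneth-rule and 9.42 in goblet-rule cells. AY761184, a cryptdin-related gene, stood at 465 against 3.14. Gm14851 stood at 373 against 1.47. Each of these differed far more between the sets than Defa24 did, and none was in the rule.

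The genes are near copies of each other, so counts by member are uncertain. Cell Ranger counts reads that map to a single place, and of the 100-base windows along the transcript of Defa20, 0.307% occurred in no other gene. Its nearest relative, Gm15308, shared 99.8% of aligned bases. The windows of Defa24 were 100% unique, and those of Gm15284 99.7%, although the 2 transcripts were 98.2% identical. By this measure Defa24, Gm15284, AY761184 and Gm14851 (82.1% unique) were less open to shared reads than Defa20. The windows cover whole annotated transcripts, and where along them the counted reads fell was not tested. Lyz1 and its neighbor Lyz2 were 96.0% identical with 97.9% of Lyz1 windows unique.

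The alpha-defensins share a position as well as a sequence. The 22 listed genes lie within 709927 bases of chromosome 8 (chr8:21025545-21735471 of GRCm38), where the matrix has 28 genes in all. Those outside the list are not unrelated neighbors. Gm10104, Gm21002, Gm21498 and Gm6696 were renamed as Defa genes in later annotation. Gm7849 and Gm15292 shared 100% and 98.1% of aligned bases with the listed Gm7861 and Defa26. Of the 905 genes tested, those with a pooled level of at least 1 in either set, 32 were at least 4-fold higher in Paneth-rule than goblet-rule cells (3.54%). Of the 28 genes in that stretch, which was looked at after seeing the data, 23 were tested, and 23 of 23 were among the 32. Most of these members passed the level filter only through Paneth-rule cells, though some, such as Defa24 and Gm15284, passed it in both sets. These counts thus describe the members and support nothing.

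Promoters of 4 genes higher in Paneth-rule than in goblet-rule cells are shown to let their letters be compared. RefSeq promoters (GRCm38.p6, 250 bases before to 50 after the gene start) were available for 5 of the 22 listed alpha-defensins, of which Defa2 had 1 UMI in these cells. They were searched on both strands for the motif of TCF/LEF factors, the effectors of Wnt signaling, in the form CTTTGAA, in the form that ends otherwise as CTTTGAT, and in the related forms written CTTTGTA or else as CTTTGTT. The search also took in the TATA box TATAAA, the motif of SOX factors ACAATGG and the E-box motif CAGCTG. A TCF/LEF match was found in 16.9% of 32851 promoters, and in 5 of 5 alpha-defensin promoters. TATAAA was in 13.6% of all promoters and in 5 of 5, while the SOX motif (3.66% of all) and the E-box (16.3% of all) were in 0 of 5. In Defa20 and Defa22 the TCF/LEF matches began 112 and 72 bases before the gene start, and TATAAA 31 bases before it. Being near copies, the 5 promoters are not separate observations. Mmp7 had a TCF/LEF match 4 bases after its start, while Lyz1, Itln1, Ang4, Mptx2, Rnase1, Guca2b, Pnliprp2 and Ccl9 had none in this window, so a match was not shared by the genes that were higher. Capitals mark TCF/LEF matches in the promoters of Defa20 (chr8:21509008-21509307, plus strand), Defa22 (chr8:21162027-21162326, plus strand), Mmp7 (chr9:7691840-7692139, plus strand) and Lyz1 (chr10:117292819-117293118, minus strand).
Defa20: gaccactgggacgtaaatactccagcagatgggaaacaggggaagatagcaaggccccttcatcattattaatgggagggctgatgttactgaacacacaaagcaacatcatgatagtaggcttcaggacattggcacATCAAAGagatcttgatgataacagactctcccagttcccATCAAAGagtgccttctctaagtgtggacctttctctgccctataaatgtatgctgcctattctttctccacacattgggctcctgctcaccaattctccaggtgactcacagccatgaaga
Defa22: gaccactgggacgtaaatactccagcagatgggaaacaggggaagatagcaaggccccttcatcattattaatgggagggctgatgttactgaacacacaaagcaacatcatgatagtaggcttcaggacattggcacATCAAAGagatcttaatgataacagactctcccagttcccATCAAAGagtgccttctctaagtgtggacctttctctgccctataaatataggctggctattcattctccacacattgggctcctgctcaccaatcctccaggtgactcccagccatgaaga
Mmp7: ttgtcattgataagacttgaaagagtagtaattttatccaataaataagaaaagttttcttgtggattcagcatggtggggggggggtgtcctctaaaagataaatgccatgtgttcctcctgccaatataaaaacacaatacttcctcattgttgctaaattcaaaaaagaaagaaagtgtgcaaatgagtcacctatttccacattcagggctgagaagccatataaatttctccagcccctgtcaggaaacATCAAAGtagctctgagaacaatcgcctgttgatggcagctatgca
Lyz1: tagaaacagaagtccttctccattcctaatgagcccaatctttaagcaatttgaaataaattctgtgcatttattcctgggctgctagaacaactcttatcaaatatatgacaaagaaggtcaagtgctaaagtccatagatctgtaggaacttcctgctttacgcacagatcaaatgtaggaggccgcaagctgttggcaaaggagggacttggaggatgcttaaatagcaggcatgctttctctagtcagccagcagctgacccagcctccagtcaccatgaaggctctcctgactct
A match is a run of letters and was not tested as a binding site.

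Other antimicrobial products were grouped by role. The list of lysozymes, ribonucleases, lectins and related products has 30 genes, of which 28 were in the matrix (Itlnb and Pla2g2a were not), 12 passed the level filter, and 5 of 12 were at least 4-fold higher, against 3.54% of all genes tested. Lyz1, which helped to choose the cells, is 1 of the 5, and Mptx2 and Rnase1 passed the filter only through Paneth-rule cells, so this count too only describes the members. The median log2 fold of the list was 0.68, against -1.27 over all 905 genes tested. Reg3d, Camp, Bpifb1, S100a8 and S100a9 had no UMI in Paneth-rule cells. The alpha-defensins and this list together held 62.8% of UMIs in Paneth-rule cells, 75.1% in goblet-low, 19.7% in goblet-high, 2.15% in goblet-rule cells and 7.21% in free RNA. Per cell the share ran from 3.63% to 87.1%, with a median of 51.9%.

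Among lectins, Mptx2, a pentraxin, stood at 89.7 in Paneth-rule cells and 0.460 in goblet-rule cells, a log2 fold of 7.61 (7.51 to 7.70). Its relative Mptx1 was under the level filter in both sets, at 0.349 against 0.665. The scaling described below moves every log2 fold up by 0.91, about as much as this difference. Mptx2 was at 113 in goblet-low but 7.36 in goblet-high cells when pooled, against 6.73 in free RNA. Few goblet-high cells carried it, with a median of 0, under 10 in 157 of 166 and at 100 or more in 2. The lectins Reg3g and Reg3b were not marked by the rule in the same way. Reg3g stood at 22.7 against 14.3, a log2 fold of 0.67. Reg3b stood at 11.6 against 16.1, a log2 fold of -0.46, which became 0.45 with the scaling described below.

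Of the ribonucleases, Ang stood at 0.906 in Paneth-rule and 1.30 in goblet-rule cells, a log2 fold of -0.52 that became 0.40 with the same scaling. Rnase1 stood at 5.51 in Paneth-rule and 0.142 in goblet-rule cells, a log2 fold of 5.28 (5.11 to 5.46). Lyz2, the lysozyme of myeloid cells, stood at 0.585 against 0.00940, with 404 UMIs against 19. Both Lyz2 values were under the level filter, and reads of Lyz1 that fell to Lyz2 by sequence likeness were not tested for. Among other genes reported in Paneth cells, 7 of 22 passed the filter and 3 of 7 were at least 4-fold higher, against 3.54% of all genes tested. The 3 were Guca2b, Pnliprp2 and Mmp7, the last by the rule itself. All 3 passed the filter only through Paneth-rule cells, so this count supports nothing. Guca2b, which encodes the hormone uroguanylin, stood at 10.7 against 0.783. The lipase gene Pnliprp2 stood at 4.20 against 0.742, and the lipase cofactor Clps at 65.1 against 26.3. Il17a had no UMI in these cells.

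**Figure D3:**
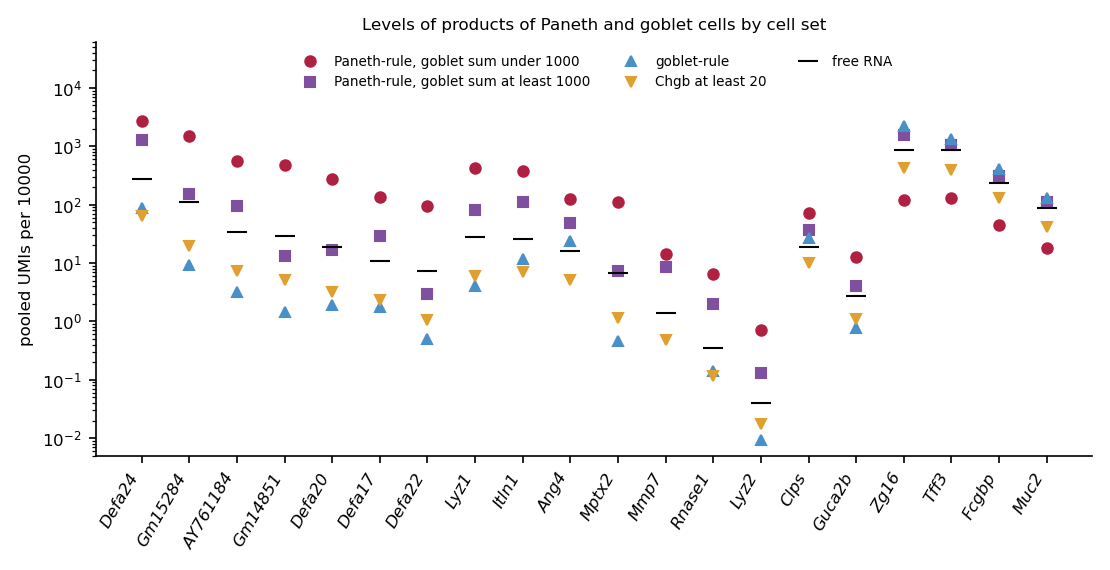
Pooled levels (UMIs per 10000, log scale) of 20 genes in goblet-low and goblet-high Paneth-rule cells, goblet-rule cells, cells with Chgb at 20 or more, and free RNA; a level of 0 is not drawn. For the alpha-defensins, Lyz1 and Itln1 the goblet-low cells are highest, and for Zg16, Tff3, Fcgbp and Muc2 they are lowest.

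The whole comparison depended on how much RNA the most abundant genes took up. The 20 most abundant genes held 72.4% of UMIs in Paneth-rule cells and 53.9% in goblet-rule cells. Over the 905 genes the median log2 fold was -1.27, and 102 genes (11.3%) were above 0. Leaving the 35 genes that were among the 20 most abundant of either set out of the totals moved every log2 fold up by 0.91, and the sign of 152 genes changed. The median log2 fold was then -0.36, and 254 of the 905 genes were above 0. The part of the antimicrobial genes alone was not tested. A lower level in these cells thus means a smaller share of the counted RNA and need not mean fewer molecules.

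Of the 32 genes at least 4-fold higher, 9 lay outside the alpha-defensin stretch, namely Lyz1, Mmp7, Itln1, Ang4, Mptx2, Rnase1, Guca2b, Pnliprp2 and Ccl9. Ccl9, a chemokine, stood at 1.37 against 0.219. At least 4-fold lower were 44 of 905 genes (4.86%), of which 1, Afp, was so with the scaling above. Afp, which encodes alpha-fetoprotein and was named after its values were seen, stood at 0.282 against 2.15. The goblet lectin Zg16, part of the sum that chose the comparison cells, stood at 442 against 2259, and Areg, an epidermal growth factor receptor ligand, at 0.434 against 2.23. Chgb and Neurod1, an enteroendocrine transcription factor, were also lower, and 510 of the 3040 goblet-rule cells had Chgb at 20 or more.

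**Figure D4:**
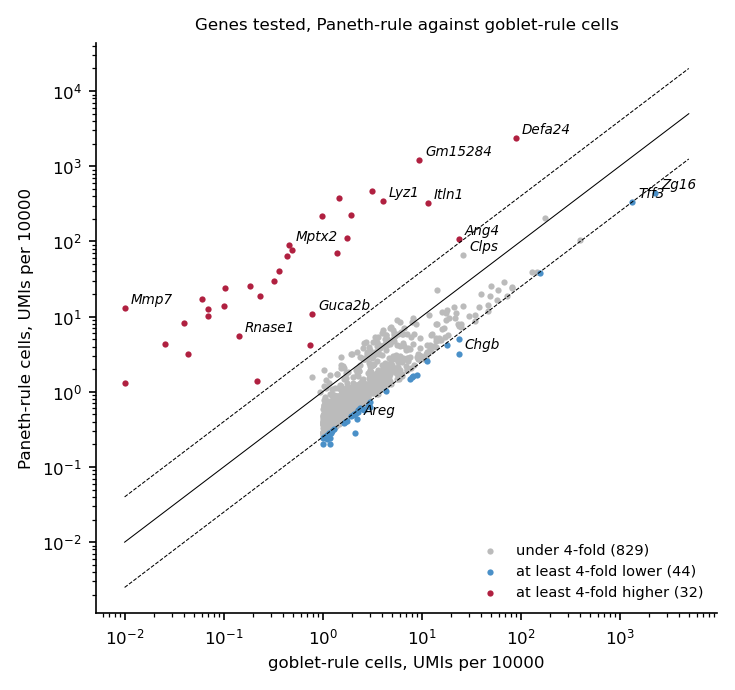
Each point is 1 of 905 genes tested, by pooled UMIs per 10000 in goblet-rule cells (horizontal) and Paneth-rule cells (vertical), both on log scales; a goblet-rule level under 0.01 is drawn at 0.01. The solid line marks equal levels and dashed lines a 4-fold difference, with 32 genes above and 44 below.

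Signals to the stem cell niche were sparse at this depth. Of 18 listed niche genes 3 passed the level filter, and 13 had a UMI, while Wnt9b, Wnt11, Ereg, Rspo1 and Bmp4 had none. The 3 that passed, Lgals2, Areg and Hbegf, were all lower in Paneth-rule cells, 2 of them at least 4-fold, against 4.86% of all genes tested. These 2, Areg and Hbegf, passed the filter only through goblet-rule cells, so the count supports nothing. The median log2 fold of the 3 was -2.07, against -1.27 over all genes, and with the scaling above it was -1.16 and neither of the 2 was 4-fold lower. The rest stood under the filter. Wnt3, the Wnt ligand of Paneth cells, stood at 0.200 in Paneth-rule cells and 0.0426 in goblet-rule cells, a log2 fold of 2.23 (1.83 to 2.64). The level was 0.238 in goblet-low and 0.0653 in goblet-high cells, and 0.297 in cells with Chgb at 20 or more, so Wnt3 did not set Paneth-rule cells apart from the latter. Egf had 7 UMIs in Paneth-rule and 2 in goblet-rule cells, a log2 fold of 3.36 (0.96 to 6.66). The Notch ligand genes Dll4 and Dll1 stood at 0.109 against 0.289 and at 0.0449 against 0.112. Both differences were close to the median log2 fold of -1.27 over all genes. Of the other listed Notch ligands, Jag1 had a UMI in 5 of the 378 Paneth-rule cells and Jag2 in 6.

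Genes of the crypt base were seen at low levels. Of 19 listed genes 19 had a UMI and 0 passed the level filter. They summed to 2.05 in Paneth-rule and 1.79 in goblet-rule cells, against 2.43 in free RNA. Sox9, a transcription factor needed for Paneth cells, stood at 0.436 against 0.0698, a log2 fold of 2.64 (2.35 to 2.94). Ephb3, a receptor that holds Paneth cells at the crypt base, stood at 0.169 against 0.0223, a log2 fold of 2.93 (2.42 to 3.46). For both genes goblet-low cells were above goblet-high cells. Other members were lower, such as Efnb1, an ephrin, at 0.151 against 0.431, and the Wnt coreceptor gene Lrp6 at 0.0854 against 0.199. Both differences were close to the median log2 fold of all genes tested. Lgr4, a receptor for R-spondins, stood at 0.343 against 0.458, a log2 fold of -0.42 that became 0.50 with the scaling above. The stem cell gene Lgr5 had 17 UMIs in these cells, and Axin2, a Wnt target, differed little at 0.0463 against 0.0396.

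Among transcription factors of secretory cells, 22 of 22 had a UMI and 5 passed the filter, with a median log2 fold of -1.46 against -1.27 over all genes. Bhlha15 (Mist1), which enlarges the secretory machinery, stood at 0.146 against 0.0183, a log2 fold of 3.0 (2.44 to 3.58). Atoh1, which starts secretory fates, stood at 0.557 against 1.52. Spdef, shared by goblet and Paneth cells, stood at 0.586 against 1.52. For Atoh1 and Spdef the log2 folds of -1.45 and -1.38 were close to the median of all genes.

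The machinery that folds secreted proteins took a smaller share of RNA but stood above most genes. Of 36 listed genes 36 had a UMI and 20 passed the filter, with a median log2 fold of -0.81, and 19 of 20 were above the median of all genes. With the scaling above, 13 of the 20 changed sign and the median became 0.10. The chaperone gene Hspa5 stood at 3.05 against 5.54, a log2 fold of -0.86 that became 0.05. Fkbp11, a peptidyl-prolyl isomerase of this compartment, stood under the filter at 0.696 against 0.178. In the list of autophagy and innate sensing 3 of 18 genes passed, with a median log2 fold of -1.19 (-0.28 scaled), and Lrrk2, Tlr4 and Tlr9 had no UMI.

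Markers of other cell types were read as whole lists in Paneth-rule cells. Of 22 goblet genes 21 had a UMI (St6galnac1 had none), summing to 1225, with Zg16 the most abundant. The sum was 516 in goblet-low, 3716 in goblet-high and 4597 in goblet-rule cells, against 2280 in free RNA. The goblet sum that divided the sets is made of members of this list, so where each set stands beside free RNA was largely fixed by the limit of 1000.

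Of 33 enteroendocrine genes 33 had a UMI, summing to 85.7 with Sct the most abundant, against 2068 in cells with Chgb at 20 or more and 539 in free RNA. The sum was spread unevenly, since 7 of 378 cells had Cck, Gip, Ghrl or Sct at 100 or more. Of these 7, 1 was goblet-high and 4 had Lyz1 and Defa24 together at 2000 or more. Enterocyte genes (19 of 20, without Fabp6) summed to 15.2 against 93.4 in free RNA, with Fabp2 the most abundant. Tuft genes (13 of 14, without Gnat3) summed to 5.11, mostly Cd24a, which Paneth cells also have. Of 20 immune genes 18 were in the matrix (Igkc and Ighm were not) and 14 had a UMI, summing to 1.02 with Lyz2 the most abundant, while Laptm5, Jchain, Cd79a and Csf1r had none. Cycling genes (18 of 18) summed to 3.39, mostly H2afz, and stem genes (6 of 6) to 0.585, with Slc12a2 the most abundant. Over all Paneth-rule cells each of these list sums, that of goblet genes included, was under its level in free RNA or, for stem genes (0.528 in free RNA), close to it.

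Against cells with Chgb at 20 or more, 37 of 1204 genes tested were at least 4-fold higher in Paneth-rule cells (3.07%) and 348 at least 4-fold lower (28.9%). The median log2 fold was -1.62. Lyz1 had a log2 fold of 5.88 and Itln1 of 5.53 there. Goblet-low cells against goblet-rule cells gave 33 of 908 genes higher (3.63%) and 380 lower (41.9%). Goblet-high cells against goblet-rule cells gave 22 of 901 higher (2.44%) and 11 lower (1.22%), with a median log2 fold of -0.22. Goblet-high against goblet-low cells gave 222 of 771 genes at least 4-fold higher (28.8%) and 26 lower (3.37%). The median log2 fold was 1.45 there, and -1.76 for goblet-low against goblet-rule cells. The goblet sum chose the goblet-low, goblet-high and goblet-rule sets, and Chgb took part in choosing both sets of the first comparison. The counts are therefore no measure of likeness.

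The goblet-high cells did not hold the alpha-defensins in the proportions of goblet-low cells. Defa24, the base of every ratio below, helped to choose the cells, as did Lyz1 and Mmp7. The ratios are therefore descriptions, and the part of that choice in them was not tested. For every 100 UMIs of Defa24, Gm14851 had 17.6 in goblet-low, 1.05 in goblet-high and 1.64 in goblet-rule cells, and 10.2 in free RNA. Gm15284 had 55.7, 11.7, 10.5 and 40.3 in the same order. Lyz1 had 15.7, 6.39, 4.53 and 9.87. AY761184 had 21.1, 7.41, 3.52 and 12.2. For these 4 genes the ratio in goblet-high cells was under that of goblet-low cells and under that of free RNA. Itln1 had 14.1, 8.71, 12.9 and 9.21, where goblet-high cells were close to free RNA. The pooled ratios weigh a minority of cells heavily. In goblet-high cells Gm15284 had a median of 13.6 and was at 100 or more in 31 of 166, AY761184 had a median of 8.97, and Defa24 of 836. In goblet-rule cells Defa24 was at 89.4 pooled but had a median of 29.5, and 200 of the 3040 cells had Lyz1 and Defa24 together at 300 or more. No source of this RNA was told apart by these ratios. Mmp7 differed less, with 0.528 in goblet-low and 0.666 in goblet-high cells.

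A droplet with 2 cells can carry RNA of both, and no cell was removed on this ground. A doublet score from Scrublet placed 11 of 378 Paneth-rule cells among the 715 kept cells with the highest scores, or 2.91% (1.46 to 5.15), against 8.72% of goblet-rule cells. For goblet-high cells it was 5 of 166, or 3.01% (0.985 to 6.89), and for goblet-low cells 6 of 212, or 2.83% (1.05 to 6.06). The part of doublets in the goblet-high cells was not otherwise tested. With 1 library no barcode could be shared with another library.

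Variation among Paneth-rule cells includes that between the goblet-low and goblet-high sets. Thinned to 2000 UMIs, the 10 genes with the highest variance over mean were Zg16, Ghrl, Gm15284, Defa24, Tff3, Cck, Gm14851, AY761184, Defa20 and Gip. Zg16 had a ratio of 223 and Gm15284 of 169, where counting alone would give 1. Ghrl, the ghrelin gene, had a ratio of 173 with a median of 1 UMI, and it was at 100 or more in 3 cells. Cck had a median of 2 UMIs and was at 100 or more in 5 cells. Gip had a median of 1 UMI and was at 100 or more in 1 cell. Few cells were thus high in these hormone genes. Among goblet-low cells alone Cck came first with a ratio of 109, Gm15284 had 73.2, and neither Zg16 nor Ghrl was among the 10 highest. The hormone genes Sct and Gip were, with ratios of 66.8 and 58.7.

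Levels of 14 antimicrobial genes were correlated across cells, as a description, over 91 pairs. All cells come from 1 library, and depth moves with these levels (Spearman rho of Lyz1 with UMIs per cell 0.73). The median rho was 0.55 in the 378 Paneth-rule cells, 0.06 in the 212 goblet-low and 0.17 in the 166 goblet-high cells. The part of depth, and of the range of levels in each set, in these values was not tested. Within goblet-low cells the highest rho was 0.79, between Gm14851 and Gm15284. Gm14851 and Defa20 had a rho of -0.22, and Defa20 with Lyz1 0.52. The part of reads shared between alpha-defensin copies in these values was not tested.

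**Figure D5:**
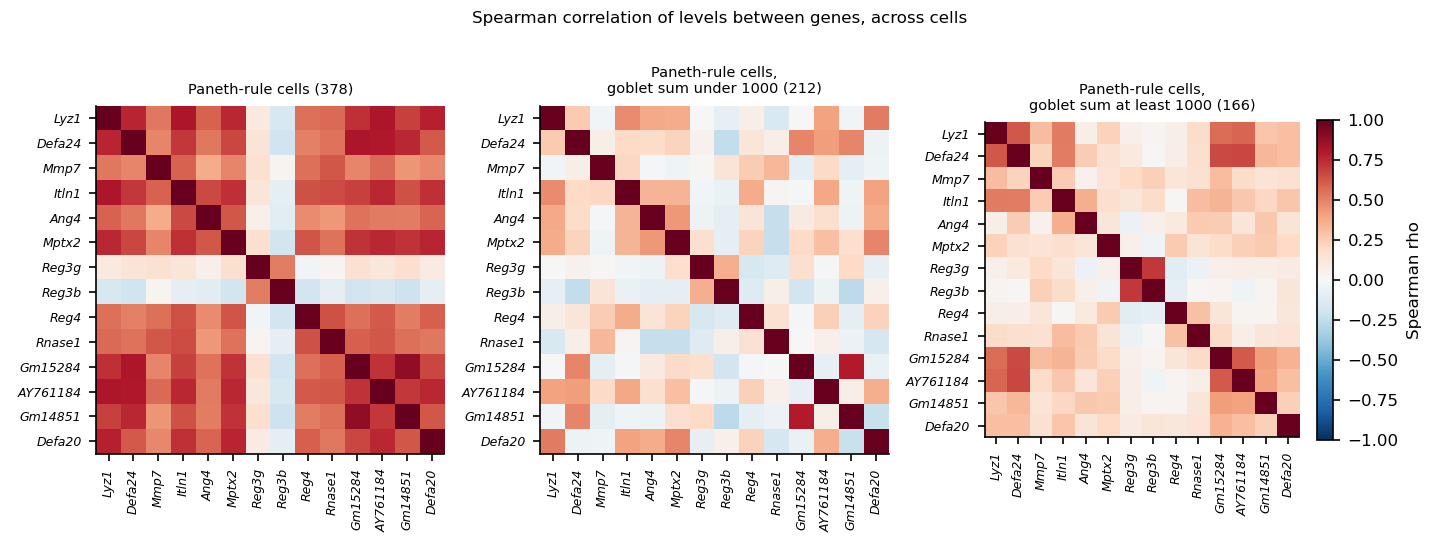
Spearman rho between levels of 14 genes, by color from -1 to 1, across all 378 Paneth-rule cells (left), 212 goblet-low cells (middle) and 166 goblet-high cells (right). The left block is red outside Reg3g and Reg3b, and the middle block is pale apart from a few pairs such as Gm14851 with Gm15284.

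The goblet-low cells differed among themselves in which alpha-defensins they held. Gm14851 was under 10 in 34 of 212 and at 100 or more in 165, a division chosen after seeing the data. The 34 cells had a median of 12458 UMIs and the 165 had 25294. The median goblet sum was 723 and 256, and that of Lyz1 and Defa24 together 1601 and 3258. The 34 cells were thus shallower and nearer to the goblet limit, and the part of either in what follows was not tested. Over 704 genes tested between them, 195 were at least 4-fold higher in the 34 cells (27.7%) and 7 at least 4-fold lower (0.994%), with a median log2 fold of 1.69. All 7 lower genes lay in the alpha-defensin stretch, among them Gm15284 and, as the division fixed, Gm14851.

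Gm15284 stood at 299 in the 34 cells and 1658 in the 165. Defa22 stood at 22.6 and 107. AY761184 stood at 588 and 563. Defa20 stood at 231 and 274 when pooled, but it was under 10 in 16 of the 34 cells and in 19 of the 165, and at 100 or more in 14 and 105. Lyz1 stood at 290 and 434, Itln1 at 311 and 385, and Ang4 at 108 and 124. Other genes were higher in the 34 cells, with Mmp7 at 23.1 and 13.4 and Rnase1 at 15.4 and 5.67. Guca2b stood at 22.2 and 11.6, and Defa17 at 186 and 126. For Mmp7, Rnase1, Guca2b and Defa17 the log2 folds were 0.78, 1.44, 0.94 and 0.56. None of them reached 4-fold, and all were under the median log2 fold of 1.69 over the 704 genes. The differences of AY761184, Defa20, Lyz1, Itln1 and Ang4 did not reach 4-fold either. The 195 higher genes were of many kinds, with ribosomal protein genes such as Rplp1 and Rps19 among them. Of goblet products, picked out after their values were seen, Spink4 stood at 471 and 114, Agr2 at 46.6 and 7.74, and Zg16 at 125 and 120. Their log2 folds were 2.05, 2.59 and 0.06, against the median of 1.69 over all genes tested. Zg16 was thus under that median, and Spink4 was not far above it. Retnlb stood at 13.0 and 0.782, while over all goblet-low cells its median was 0.234 and its highest level 176.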

How the data were processed

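Per the authors, the droplet library was aligned to the mm10 transcriptome and collapsed to UMIs with Cell Ranger 2.0.1 at default settings. The deposited counts are UMIs per gene and barcode, with no normalization, and all barcodes are present. The bulk libraries of the series, of other mice and another sort, were not used.

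Barcodes were kept and sets chosen by the rules in the report. UMIs of a set were pooled over its cells and divided by its total, with exact Poisson intervals, and folds with exact conditional intervals. Genes with a level of at least 1 in either set were compared, and called from 4-fold. A set with 0 UMIs was put at 3 UMIs over the set, which for Mmp7 bears on its call. Free RNA came from 410487 barcodes of 1 to 100 UMIs, 1.85% of all UMIs. Doublet scores came from Scrublet in scanpy 1.11.5 (seed 1, 0.8% per 1000 kept cells). Intervals used scipy 1.17.1, sequences biopython 1.88, figures matplotlib 3.10.9 and tables pandas 2.3.3 with numpy 2.4.6, under Python 3.11.15. The fold calls were checked on simulated data.

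The members and gene lists were chosen with earlier results of these data known. Genes were named from the lists (the highest, or those at or near 0), from the 25 highest and 15 lowest folds among genes with a level of at least 5, and from the 10 most variable genes. Positions came from GENCODE vM21 (GRCm38), which matched 27645 of 27998 genes. Alternatives varied the limits on genes, mitochondrial UMIs, Lyz1 and Defa24, Mmp7, Chgb and goblet genes, the level filter, the scaling, pooling, depth and doublets.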

Additional observations from a re-analysis of the deposited data

How the results depend on the processing

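The main values were 378 Paneth-rule cells, 4.0% of kept cells, 32 genes at least 4-fold higher than in goblet-rule cells and 44 at least 4-fold lower. Under 11 other sets of limits and the doublet removal the number of cells ran from 265 (over 1500 genes) to 468 (at least 1 UMI of Mmp7).

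The percent of kept cells was 2.81 with over 500 genes, 4.96 with over 1500 genes, 4.46 with mitochondrial UMIs under 5%, 5.26 over the Cell Ranger 2 limit of 3892 UMIs, 4.92 and 3.27 with Lyz1 and Defa24 together at 150 and 600, and 4.95 and 3.27 with at least 1 and 4 UMIs of Mmp7. Each of these alters by construction which cells are counted or kept.

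The number of genes higher stayed between 30 and 35 under the 19 alternatives tried for it, other than the added one below, and included at least 30 of the 32 each time. The number of genes lower was 9 and 166 with Lyz1 and Defa24 together at 150 and 600, 12 and 163 with at least 1 and 4 UMIs of Mmp7, 1 when scaled without the 20 most abundant genes of each set, 8 as a mean over cells, 11 when thinned to 2000 UMIs, and 75 and 26 among genes with a level of at least 0.5 and 2. The calls of lower genes thus depended on these settings. For the level filter this follows from the number of genes tested, and for the scaling from moving every log2 fold up by 0.91. For the others the cause was not tested.

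An alternative chosen after seeing the data kept the cells with a goblet sum under 1000 only. It left 212 cells, 2.24% of kept cells, with 33 genes higher, 32 of them shared, and 380 lower, 44 of them shared.

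Of 294 named genes with a fold, no gene called from 4-fold changed sign under 17 settings or the added one. The number of folds that left their counting interval ran from 5 (Chgb under 40) to 238 (scaling). Of the 10 most variable genes 9 were shared when cells were thinned to 3000 UMIs.

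No paired analysis was possible because there was 1 library of pooled mice. Differences between mice, sexes or sorts cannot be told apart from chance in it. Depth limits genes at few UMIs, such as Egf and Neurog3. The alpha-defensin genes are near copies, so counts by member are uncertain.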
